A study of Homo sapiens with 32 samples.

Results

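The count table of this study lists 26104 merged m6A peaks by gene and start position, and 1262 of them, in 1224 of the 7986 genes, start within the first 4 steps of 50 bp of their gene as listed. The rule that selects these low-start peaks uses the listed start and no read count. Starts are given here as steps of 50 bp from position 1, so step 1 is position 1 and step 2 is position 51. Of the low-start peaks, 239 start at step 1, 255 at step 2, 176 at step 3 and 441 off these steps, and the rest at step 4. Just outside the limit, 114 peaks start at the next step. A further 3691 peaks start later in the same genes, spread over 982 genes, and 232 low-start peaks are the only peak of their gene. On average over the libraries, 1033 of the 1262 low-start peaks held at least 10 reads in the input and at least 10 reads in the IP.

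N6-methyladenosine (m6A) was profiled by pulling down sonicated poly(A) RNA with an m6A antibody and sequencing the bound fragments (IP) beside the starting RNA (input). The cells were H1 and MEL1, both human embryonic stem cell lines. Each line was profiled undifferentiated (S0) and after directed differentiation to 3 later stages, with 2 replicates at each. These are posterior foregut at S3, pancreatic progenitors at S4 and, at S6, immature β-like cells. This gives 16 preparations and 32 libraries, 4 preparations per stage, and no group carried a knockdown or a treatment other than the differentiation protocol itself. The study calls its replicates biological, but the labels do not say whether they were separate cultures, so p-values measure the spread between these samples, which may be technical.

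In most mRNAs, m6A is written on adenosines within DRACH-type motifs such as GGAC and concentrates near the stop codon and in the 3′ UTR. The far 5′ end holds a different mark: when the first transcribed nucleotide is an adenosine, it is often modified next to the cap to m6Am, and m6A antibodies bind m6Am as well. mRNAs of ribosomal proteins and translation factors typically begin with a cytosine followed by a run of pyrimidines, the 5′ TOP motif, which links their translation to growth signalling.

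Whether a low start means the transcription start was checked by gene strand. In plus-strand genes, 42 of 10565 peaks (0.398%) started off a grid of 50-bp steps from position 1, whereas in minus-strand genes 9473 of 9771 (97.0%) did. The positions of minus-strand genes are therefore not counted in 50-bp steps from the listed position 1, and the direction in which they were counted is not given in the sources used here. The medians along the genes ran in opposite directions on the 2 strands, by a small margin that was not tested. Among genes with at least 3 peaks, the peak with the lowest start had a median log2 IP over input of -0.27 and the one with the highest start 0.05 in 1586 plus-strand genes, against -0.05 and -0.23 in 1887 minus-strand genes. The peak with the lowest start was the higher of the pair in 47.6% of the plus-strand and 52.4% of the minus-strand genes. Because of the grid, only the 543 low-start peaks of plus-strand genes are described as lying at the 5′ end. The 526 of minus-strand genes and the 193 whose strand could not be resolved, 13 of them mitochondrial, are described by their listed start only.

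The sequences around the RefSeq transcription start of 7 plus-strand genes are shown because their low-start peaks had among the highest and the lowest mean enrichment of those with at least 10 reads on average in input and in IP. Each runs from 10 bases before the start through the first 30 transcribed bases of the plus strand of GRCh38.p14. The capital single base is the first transcribed base, and capital GGAC marks that motif where it lies in the transcribed bases. JRKL (ENSG00000183340, chr11:96390003-96390042), FAM72D (ENSG00000215784, chr1:145094286-145094325) and SAC3D1 (ENSG00000168061, chr11:65040923-65040962) are the 3 with high enrichment:
JRKL: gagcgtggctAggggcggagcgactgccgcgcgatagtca
FAM72D: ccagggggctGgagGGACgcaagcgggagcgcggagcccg
SAC3D1: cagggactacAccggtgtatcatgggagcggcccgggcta
RPL13A (ENSG00000142541, chr19:49487598-49487637), RPL10A (ENSG00000198755, chr6:35468391-35468430), EIF4H (ENSG00000106682, chr7:74174346-74174385) and RPL7A (ENSG00000148303, chr9:133348208-133348247) had the lowest:
RPL13A: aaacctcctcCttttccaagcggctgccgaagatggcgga
RPL10A: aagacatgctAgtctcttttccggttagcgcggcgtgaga
EIF4H: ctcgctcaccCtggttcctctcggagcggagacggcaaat
RPL7A: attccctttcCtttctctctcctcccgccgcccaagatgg

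Low-start peaks took 16.8 to 30.8% of the reads of the 16 input libraries and 5.36 to 9.54% of those of the 16 IP libraries. Without the 14 mitochondrial ones these shares were 7.07 to 14.3% and 5.07 to 9.29%. The total count over all peaks was 2652830 to 6879256 in the input libraries. The 2 MEL1 S4 IP libraries held 2378881 and 2483580 reads, and the other 14 IP libraries 7422690 to 15674899.

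Low-start peaks were more often depleted than enriched in the IP at every stage. Calls came from edgeR's quasi-likelihood test over all 26104 peaks and required a 2-fold difference between IP and input with a Benjamini-Hochberg adjusted p under 0.1. At S0, 227 of the 1262 low-start peaks were called higher in the IP, beside 30.7% of all peaks, and 522 lower, beside 24.9% of all peaks. The low-start shares were 18.0% and 41.4%. At S3, 207 were higher (all peaks 30.3%) and 623 lower (all peaks 31.0%). At S4, 166 were higher (all peaks 20.8%) and 606 lower (all peaks 32.1%), and at S6, 210 were higher (all peaks 28.4%) and 641 lower (all peaks 34.6%). At each stage the low-start share was below the background for higher calls and above it for lower calls. The later peaks of the same genes were lower more often still, at 47.5, 56.2, 54.2 and 59.4% from S0 to S6 beside 41.4, 49.4, 48.0 and 50.8% of the low-start peaks. Their medians lay between -1.30 and -2.22, and those of the low-start peaks between -0.79 and -1.37.

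Plus-strand 5′ ends had lower medians than the low-start peaks as a whole. In stage order from S0 to S6 their median log2 IP over input was -1.26, -1.77, -1.52 and -1.79. All other plus-strand peaks, in any gene, had medians of 0.37, 0.22, -0.21 and -0.01. The later peaks of the same plus-strand genes had -0.95, -1.47, -1.48 and -1.96, which at S6 is below the 5′ ends. The unresolved low-start peaks were the lowest of the 3 strand groups, at -1.80, -2.21, -1.97 and -2.65. With another library scaling (DESeq2's median-of-ratios size factors, RLE, in edgeR) the median of all peaks moved from 0.28 to -0.34 at S0, and the split of the low-start calls at S0 moved from 30.3% to 18.3% higher. With RLE the plus-strand 5′ median at S0 was -1.95, again below that of all peaks.

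Called higher at all 4 stages were 28 plus-strand low-start peaks (5.16%), and called lower at all 4 were 202 (37.2%). All peaks gave 14.9% and 19.4%. The later peaks of the same plus-strand genes gave 7.72% and 36.7%, with a median over the stages of -1.52 beside -1.61 for the low-start peaks. The low-start peaks and the later peaks of their genes were thus close in these shares. By start position, plus-strand medians were -1.57 at step 1, -1.26 up to step 2, -1.89 up to step 3 and -2.17 up to step 4, against -1.14 and 0.01 in the next ranges of starts plotted. In minus-strand genes the low-start peaks were closer to all peaks, with 68 (12.9%) higher and 136 (25.9%) lower at all 4 stages and a median of -0.34, while their later peaks had a median of -2.12. The 76 minus-strand peaks at step 1 were lower, with a median of -1.05.

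**Figure D1:**
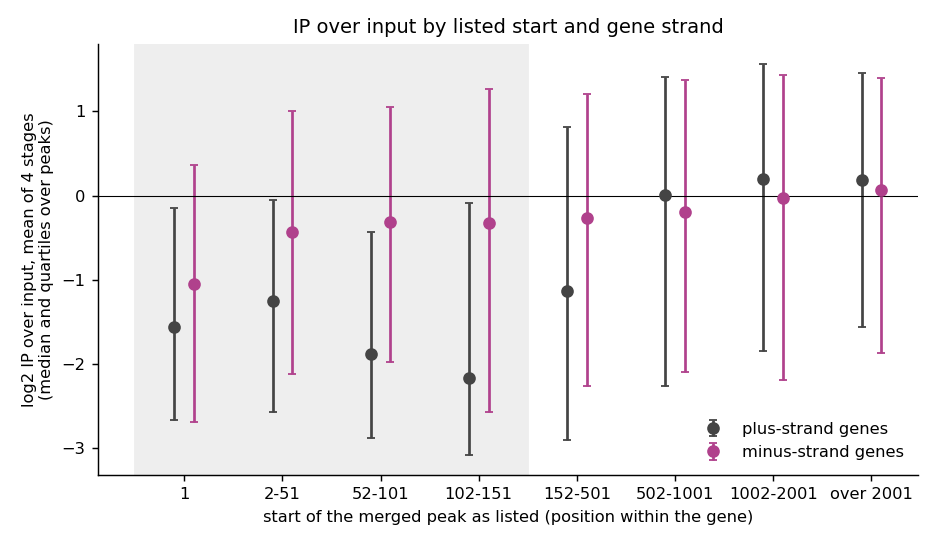
Median (point) and quartiles (bars) over peaks of log2 IP over input, averaged over the 4 stages (y axis), by listed start (x axis, in bp, low starts shaded) for plus-strand and minus-strand genes. The plus-strand medians run from -1.57 at step 1 to -2.17 at step 4 and lie between 0.01 and 0.20 in the 3 ranges furthest in. The minus-strand medians are -1.05 at step 1 (76 peaks), -0.44 up to step 2 (4 peaks) and between -0.33 and 0.06 beyond it.

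Preparations differed in how strongly the plus-strand 5′ peaks were depleted. In the 8 H1 preparations the lowest, middle and highest medians were -1.79, -1.25 and -0.55, and in the 8 MEL1 preparations -3.19, -2.08 and -0.89. The 2 H1 S4 preparations, at -0.80 and -0.55, were the least depleted of all 16, and the 2 MEL1 S4 preparations, at -3.19 and -2.84, the most. At S0 the 2 MEL1 preparations stood apart from each other at -0.89 and -2.41, with both H1 preparations near the first at -0.99 and -0.99. The later peaks of the same genes spread less, with -1.98 to -1.15 in H1 and -2.05 to -0.82 in MEL1.

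**Figure D2:**
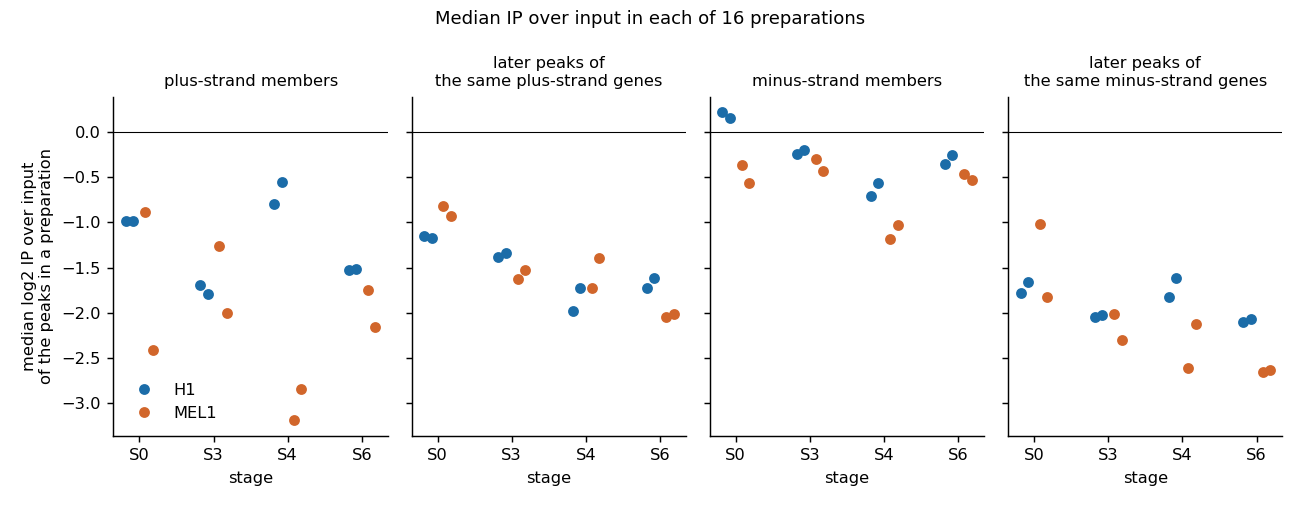
Median log2 IP over input of 4 groups of peaks (panels) in each of 16 preparations (points) by stage and line. Plus-strand members, the low-start peaks of plus-strand genes, spread from -3.19 in MEL1 S4 to -0.55 in H1 S4, and the later peaks of their genes from -2.05 to -0.82.

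Each low-start peak was also compared with all peaks of its own gene. In edgeR's test of a peak's IP over input against that of its gene, 54 of the 1030 testable low-start peaks were called higher (all peaks 4.07%) and 345 lower (all peaks 38.1%). The low-start shares of 5.24% and 33.5% lie near that background. With limma on the ratio per preparation, 230 (22.3%) were higher beside 15.2% of all peaks, and 423 (41.1%) lower beside 45.6%, so the count of higher calls depended on the test. Of 478 plus-strand low-start peaks, 27 were higher and 173 lower. Set against the summed later peaks of their gene alone, 470 plus-strand low-start peaks had a median log2 difference of -0.80, with 79 lower in all 16 preparations and 24 higher in all 16. Among 413 minus-strand ones the median was -0.20, with 67 lower and 65 higher in all 16. By preparation, the plus-strand median was closest to 0 in the 2 H1 S4 preparations (-0.07 and -0.05) and furthest in the second MEL1 S0 preparation (-1.43).

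Among called plus-strand 5′ peaks with at least 10 reads on average, that of ZMAT2, a zinc finger protein of the spliceosome, stood highest above its gene. The peak starts at position 1, and its log2 IP over input was 1.52 to 3.38 over the 16 preparations with a median of 2.15. It exceeded the later peaks of ZMAT2 by 2.40 to 5.41 in every preparation, and its difference from the gene was 2.90 ± 0.19 (SE; adjusted p = 1.87e-23 in edgeR). U2AF2, whose product recognises the polypyrimidine tract at 3′ splice sites, also stood above its gene. Its peak at position 1 had 1411 to 25743 IP reads and a log2 IP over input of 1.26 to 3.53, with 1.85 to 2.55 in the fits of the 4 stages. CHD3, a remodelling ATPase of the NuRD complex, had its highest counts in H1 S4, where its peak at 51 held 553 and 391 IP reads over 10 and 19 input reads, while the other 14 IP libraries held 0 to 38 reads.

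Of the called plus-strand low-start peaks with at least 10 reads on average, PRRC2A (step 2) and PTPRZ1 (step 4) lay furthest below their genes. PRRC2A, an RNA-binding protein that has been described as an m6A reader, had 0 to 50 IP reads over 5 to 135 input reads, and its difference from the gene was -4.06 ± 0.43 (SE; adjusted p = 7.94e-17). PTPRZ1, a receptor tyrosine phosphatase of neural and stem cells, had 0 to 342 IP reads and the same difference of -4.06 ± 0.57 (SE; adjusted p = 6.68e-11). In MEL1 the input reads of PRRC2A at position 51 differed between the replicates at every stage, from 5 and 47 at S6 to 18 and 135 at S4.

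The gene lists are described by their counts and medians, without a test. Of 9 low-start peaks in 6 ribosomal protein genes, 8 were lower in the IP at all 4 stages, with a median of -5.10 (range -7.13 to -2.37), while the median of all 58 peaks of the listed genes was -2.92. Of 7 low-start peaks in translation factor genes, 5 were lower at all 4 stages, and 4 of 7 in the splicing list and 4 of 7 in the cell cycle list were lower, with 1 higher in each. In these 3 lists the low-start median lay above that of all peaks of the listed genes. It was -3.38 beside -4.07 for all 106 peaks of the translation factor genes, -2.07 beside -3.61 for splicing and -2.18 beside -2.64 for cell cycle. Zinc finger genes had 2 higher and 1 lower of 16, with a median of 0.35, below the 1.35 of all 1179 peaks of those genes. Among all low-start peaks the median was -1.24, with 113 higher and 428 lower. The 9 low-start peaks of chromatin enzymes gave 1 higher and 1 lower, and the 7 of the Wnt, Notch, Hedgehog and FGF list and the 3 of the pancreas list gave none. One of 5 in the signalling and immediate early list, HSPA8, and 1 of 3 in the duct list, KRT19, were lower at all 4 stages.

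The m6A machinery itself was represented by 3 low-start peaks. IGF2BP1, which binds and stabilises methylated mRNA, was lower in the IP at every stage, with a log2 IP over input of -0.94 to -2.39 in H1 and -1.34 to -6.31 in MEL1 at position 51. IGF2BP2, its paralogue, stayed between -0.71 and 1.03 and was not called at any stage, although its peak at position 1 lay 1.66 ± 0.25 (SE) above its gene (adjusted p = 1.49e-09). YTHDF1, a cytoplasmic reader that promotes translation of methylated mRNA, ran from -1.58 to 0.54 and was not called either. No writer or eraser of m6A in the list held a low-start peak.

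JRKL, FAM72D, FOXQ1 and SAC3D1 had the highest mean fitted enrichment over the 4 stages among plus-strand low-start peaks with at least 10 reads on average in input and in IP. JRKL, a gene of a transposase-derived family, had 11 to 60 input reads and 84 to 1117 IP reads in its peak at step 2, and its log2 IP over input was 1.34 to 4.28 with a median of 2.79. All 16 preparations of JRKL were above 0, and the fold was called at every stage, from 2.02 ± 0.36 (SE; adjusted p = 3.17e-05) at S4 to 3.31 ± 0.37 (adjusted p = 2.32e-08) at S0. FAM72D (start 1) ran from 0.98 to 4.95 with the highest value in H1 S4, but near-identical FAM72 copies share its sequence, so its reads may come from several genes. SAC3D1, linked to centrosome duplication, ran from 0.91 to 4.99 at position 51, with the highest value resting on 2 input reads in MEL1 S3. FOXQ1, a forkhead transcription factor, ran from 0.00 to 3.70 and was called higher at S0 and S4 only. All 4 S0 input libraries held 0 reads of FOXQ1, so its fitted fold at that stage has no bound. Over S3, S4 and S6 alone FOXQ1 averaged 1.75 and ranked 19, while JRKL, FAM72D and SAC3D1 stayed at 2.59 to 2.80 and held the first 3 ranks.

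The 4 most depleted plus-strand 5′ peaks with at least 10 reads on average lay in RPL13A, RPL10A, EIF4H and RPL7A, picked by rank without a test. In edgeR's test against the gene, RPL13A was called lower (-3.84). RPL10A (-0.21), RPL7A (-0.57) and EIF4H (-0.42) were not called there. RPL13A, a protein of the large ribosomal subunit, held 361 to 3776 input reads but 0 to 285 IP reads at step 4, and its log2 IP over input was -9.07 to -4.74 in H1 and -10.98 to -4.26 in MEL1. Its fold was -4.92 ± 0.60 (SE; adjusted p = 8.36e-08) at S0 and -8.38 ± 0.75 (adjusted p = 3.79e-10) at S4. RPL10A held 769 to 2478 input and 6 to 175 IP reads at position 1, and RPL7A 120 to 785 and 0 to 74. RPL10A ran from -8.20 to -4.53 and RPL7A from -9.00 to -3.82. RPL41, the shortest ribosomal protein, was less depleted, with -3.65 to -1.80 over 2161 to 7476 input reads. Ribosomal protein genes have many processed pseudogenes, and how reads shared with them were counted is not given in the sources used here. EIF4H, which stimulates the EIF4A helicase in translation initiation, had 0 to 89 IP reads over 227 to 436 input reads at step 4.

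**Figure D3:**
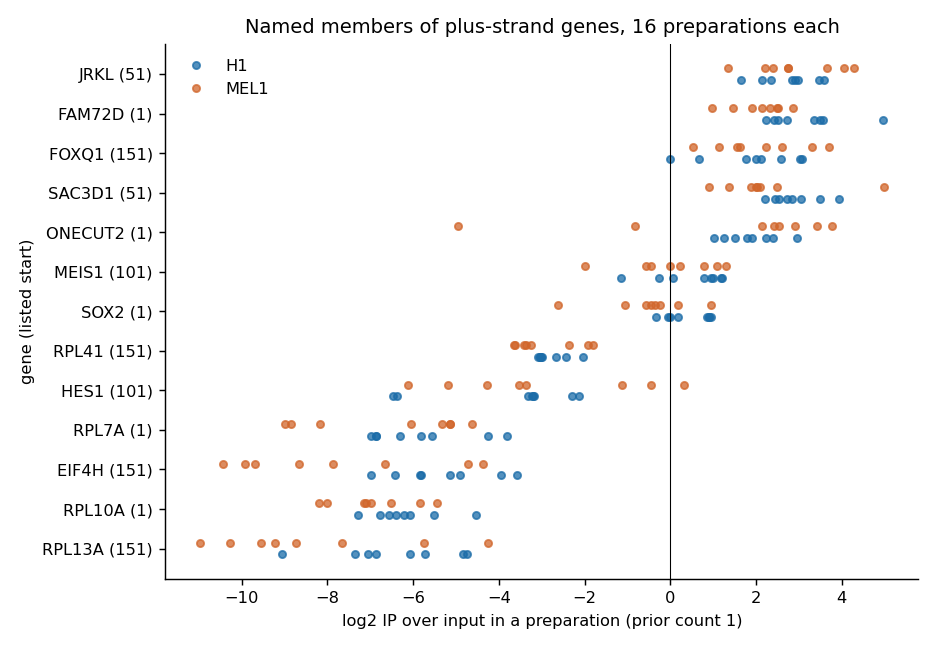
Log2 IP over input (x axis) of named low-start peaks of plus-strand genes (y axis, listed start in parentheses), with each of the 16 preparations as a point, coloured by line. JRKL, FAM72D and SAC3D1 are above 0 in every preparation, and RPL7A, EIF4H, RPL10A and RPL13A at -3.58 or below in every preparation.

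Among minus-strand genes, MFSD6L, a predicted transporter of the major facilitator family, had the highest mean enrichment of the low-start peaks with at least 10 reads on average in input and in IP. Its log2 IP over input was 2.16 to 5.40 with a median of 3.71 at listed position 89, and the peak held 10679 and 11901 IP reads in MEL1 S3 against 207 to 765 in the other 14 preparations. CCDC8 (135), a partner of CUL7 in the 3M complex, ran from 1.62 to 4.47, and ENSG00000272617 (88), which has no symbol in the table used, from 2.65 to 3.73. ASTN2 (91) ran from 0.64 to 5.37 over 0 to 45 input reads, the widest range of the 4. The lowest were ACTG1 (94), the cytoplasmic γ-actin, PRDX1 (73), a peroxidase, SNRPB (79), a core spliceosomal protein, and PSAP (140), the precursor of the saposins. PRDX1 had 622 to 4437 input reads and 3 to 292 IP reads, and its log2 IP over input was -9.49 to -5.39 with no preparation near 0. SNRPB ran from -8.79 to -5.05 with 0 to 65 IP reads. EEF1G and EEF2, elongation factors of translation, had negative ratios in all 16 preparations, at -7.77 to -2.86 in EEF1G and -2.46 to -0.17 in EEF2, which was called lower at S4 and S6. The EEF2 peak nonetheless lay 2.44 to 4.99 above the later peaks of its gene in every preparation. In edgeR's test against all peaks of the gene its difference was 0.74 ± 0.22 (SE), under the 2-fold limit, and was not called.

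Relative to their own genes, RBMX (83) and PHC1P1 (62) stood highest among called minus-strand low-start peaks with at least 10 reads on average. ZFP36L2 (1) and GBA2 (54) stood lowest among them. RBMX, an RNA-binding protein that associates with methylated RNA, exceeded its gene by 2.51 ± 0.48 (SE; adjusted p = 2.57e-06). ZFP36L2, which binds AU-rich elements and promotes mRNA decay, differed from its gene by -5.96 ± 0.55 (adjusted p = 9.04e-19), and all 4 of its IP libraries at S4 held 0 reads. PHC1P1 is a pseudogene, and its reads may belong to PHC1.

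Enrichment of low-start peaks was more often lower than higher in MEL1 against H1. Averaged over the stages, 31 of the 1262 were called higher in MEL1 (all peaks 4.60%) and 329 lower (all peaks 14.1%), with a median log2 difference of -0.60 against -0.22 for all peaks. In either direction this is 28.5%, beside 18.7% of all peaks. Without H1 S4 replicate 1 the share called was 19.9%, with 49 peaks higher, and the median was -0.36. The share of all peaks in that fit is not given here, so the 19.9% cannot be set beside the 18.7%. At plus-strand 5′ ends 183 of 543 (33.7%) were lower and 16 (2.95%) higher, with a median of -0.81, while the later peaks of the same genes gave 219 lower (12.4%), 107 higher (6.08%) and a median of -0.13. Minus-strand low-start peaks gave 89 lower (16.9%) and 8 higher (1.52%) of 526, with a median of -0.46. The later peaks of the same minus-strand genes did not stand apart from them, at 19.9% lower, 4.21% higher and a median of -0.47. RLE scaling moved the median of all peaks from -0.22 to 0.05 and that of the plus-strand 5′ peaks from -0.81 to -0.54. With RLE, 131 of the 543 (24.1%, all peaks 9.14%) were lower and 25 (4.60%, all peaks 7.42%) higher, and among all low-start calls the split moved from 8.61% to 20% higher in MEL1.

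At plus-strand 5′ ends the line difference had its highest share of calls at S4, and its change between stages was not itself tested. Fitted within each stage, 16.2% of them were lower in MEL1 at S0 (all peaks 10.7%, median of the 5′ ends -0.79) and 49.2% at S4 (all peaks 22.5%, median -2.18). At S3 the share was 1.10% (all peaks 2.66%, median 0.14) and at S6 2.03% (all peaks 2.6%, median -0.52). The share of the 5′ ends thus exceeded the background at S0 and S4, lay below it at S3 and near it at S6. In stage order the medians of all peaks were -0.24, -0.07, -0.24 and -0.34. At S0, as given above, MEL1 replicate 2 alone stood apart, at a median of -2.41, while MEL1 replicate 1 at -0.89 lay beside both H1 preparations. With S4 not used, a choice made after seeing the data, 60 of 543 (11.0%) were lower beside 7.63% of all peaks, with a median of -0.43. Other measures moved with the line at S4. The MEL1 S4 IP libraries were the shallowest, as given above. The 2 H1 S4 IP libraries held 0.0465 and 0.051% mitochondrial reads, against 0.388 to 2.25% in the other 14 IP libraries. Marker levels differed: the 6 detected hepatic markers summed to 202 and 245 input CPM (read counts scaled to library size) in H1 S4 and 80400 and 84900 in MEL1 S4, with none of the 6 at 0 in all libraries, and the 5 detected neural markers to 2870 and 3140 in H1 S4 and 835 and 933 in MEL1 S4. At S3, where 1.10% were lower in MEL1, the hepatic sums were 534 and 535 in H1 and 40700 and 47500 in MEL1. The part of depth, of the mitochondrial share and of cell composition in the S4 difference was not tested.

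**Figure D4:**
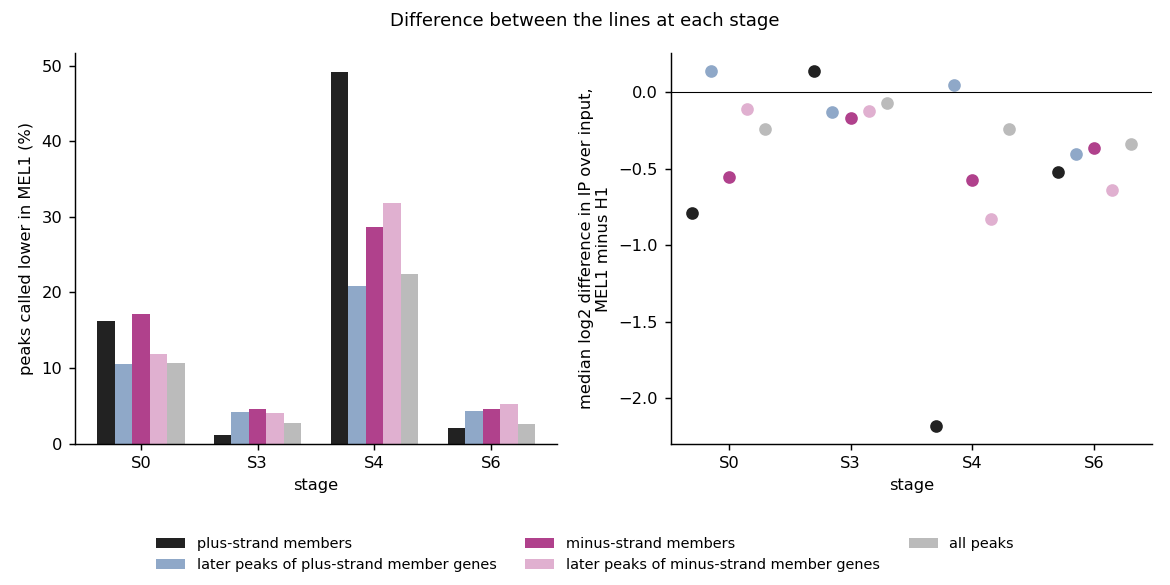
Share of peaks called lower in MEL1 than in H1 (left, percent) and median log2 difference in IP over input, MEL1 minus H1 (right), by stage for 5 groups of peaks, where members are the low-start peaks. Plus-strand members reach 49.2% and a median of -2.18 at S4 and 1.10% and 0.14 at S3.

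Named peaks with a line difference were mostly lower in MEL1. EIF4H differed by -2.74 ± 0.86 (SE; adjusted p = 0.0226), with 0 IP reads in both MEL1 S4 preparations and in 1 of the 2 at S0, and 59 and 89 in H1 S4. With S4 not used the EIF4H difference was -0.50 and no longer called, and at S3 it was 1.21, the opposite direction. RPL13A differed by -2.24 ± 0.40 (adjusted p = 0.000189). FGFR4, a fibroblast growth factor receptor of endoderm and liver, differed by -1.64 ± 0.61 (adjusted p = 0.0521) at position 51, with a log2 IP over input of 0.96 and 1.15 in H1 S4 and -5.55 and -3.38 in MEL1 S4, and without S4 the FGFR4 difference of -0.57 was not called. The opposite direction was seen for SPP1, a secreted phosphoprotein of ductal cells, at 2.66 ± 0.55 (adjusted p = 0.000948), and for HDAC1, a histone deacetylase, at 1.71 ± 0.54 (adjusted p = 0.0238). In SPP1 the 2 MEL1 S3 input libraries held 0 reads, and at S6 its log2 IP over input was -1.71 and -1.74 in H1 and -1.04 and -0.74 in MEL1.

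Between stages, few low-start peaks changed in IP relative to input, and how many depended on the line and the scaling. From S0 to S3 none of 1262 was called by edgeR (all peaks 0.0498% in either direction), with 66 at an unadjusted p under 0.05, beside 1616 of all 26104 peaks, and 1 called by DESeq2. Fitted in H1 alone, 2 were higher and 171 lower, 13.7% in either direction beside 6.09% of all peaks, and in MEL1 alone 64 were higher and 54 lower, 9.35% beside 8.8%. From S3 to S4, 16 were higher (all peaks 0.751%) and 63 lower (all peaks 5.85%), and from S4 to S6, 68 were higher (all peaks 5.31%) and 27 lower (all peaks 2.26%). From S0 to S6 none was higher (all peaks 0.0766%) and 12 were lower (all peaks 1.18%). These comparisons share libraries at the stage they have in common. The medians also differed by strand. From S3 to S4 the median was 0.24 at plus-strand low-start peaks, with 3 higher (0.552%) and 7 lower (1.29%). At minus-strand ones it was -0.5, with 4 higher (0.76%) and 42 lower (7.98%). From S4 to S6 these medians were -0.28 and 0.4. RLE scaling gave 35 calls from S3 to S4 (2.77%, all peaks 2.33%), with 23 of them higher, and 85 from S4 to S6 (6.74%, all peaks 6.41%), with 40 higher, so the direction of both steps turned with the scaling. It turned with the line as well. In H1 alone 634 of 1262 (50.2%) were called from S3 to S4, beside 46.2% of all peaks, so the total lies near the background. Of these, 396 (31.4%) were higher beside 15.8% of all peaks and 238 (18.9%) lower beside 30.4%. In MEL1 alone 216 (17.1%) were called beside 12.7% of all peaks, with 42 (3.33%, all peaks 4.72%) higher. Without the 2 MEL1 S4 preparations 275 (21.8%) were called beside 20.9%, with 135 higher. From S4 to S6, H1 alone gave 600 calls (47.5%, all peaks 41.6%) with 239 higher, and MEL1 alone 199 (15.8%, all peaks 11.5%) with 145 higher. Without the 2 MEL1 S4 preparations 112 of 263 calls (20.8%, all peaks 19.2%) were higher, and with DESeq2 64 of 162 (12.8%, all peaks 13.2%). From S0 to S6, DESeq2 called 64 (5.07%, all peaks 6.03%) with 10 higher, H1 alone gave 190 (15.1%, all peaks 10.8%) with 11 higher and MEL1 alone 138 (10.9%, all peaks 10.9%) with 58 higher. Without H1 S4 replicate 1 the share called from S3 to S4 fell from 6.26% to 1.19% and its direction turned, with 11 of 15 calls higher. Leaving out either S3 preparation of H1 or MEL1, or H1 S6 replicate 1, gave 32 to 52 calls from S3 to S4, of which 20.6 to 28.1% were higher. From S4 to S6, leaving out H1 S4 replicate 1 or any 1 of the S6 preparations gave 45 to 62 calls, of which 58.2 to 78.2% were higher. Without H1 S6 replicate 1, or without any 1 of the MEL1 preparations at S0 or S6, no call was left from S0 to S6, and leaving out 1 of the others gave 1 to 26.

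The steps in and out of S4 are shown by a few named peaks. RN7SL5P belongs to the 7SL family, the RNA of the signal recognition particle, and reads of near-identical copies cannot be assigned among its members. At its step 3 peak the log2 IP over input was -0.81 and -2.32 in MEL1 S4, -4.24 and -4.54 in H1 S4 and -8.87 to -5.35 elsewhere. ENSG00000283029, which has no symbol in the table used, had a similar profile at step 3. Its IP libraries held 380 to 2845 reads except in MEL1 S4, where they held 31201 and 11720, and its log2 IP over input there was -0.71 and -2.04 against -8.61 to -5.26 elsewhere. The fitted gain from S3 to S4 was 4.02 ± 0.99 (SE; adjusted p = 0.0237 in edgeR), and H1 stood at -5.26 and -5.40 at S4 beside -6.61 and -6.71 at S3. S100A11, a calcium-binding protein, held 0 or 1 IP reads in all 4 S4 preparations at position 1, over 48.6 to 178 input CPM, and 33 to 208 at S3 and S6. CUL7, the ubiquitin ligase scaffold of the 3M complex, likewise held 0 IP reads in all 4 at S4 and 0 to 30 at the other stages. From S0 to S6, B4GAT1, a glycosyltransferase of dystroglycan, and HDAC7, a class IIa histone deacetylase, were called lower, but neither call was kept when any 1 S6 preparation or any 1 MEL1 S0 preparation was left out. HDAC7 (79) held 34 to 469 IP reads at S0 and 0 to 2 at S6, with a log2 change of -5.10 ± 1.30 (adjusted p = 0.0801).

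In the input, which measures the abundance of the RNA under each peak, low-start peaks were called at shares near those of all peaks. In bulk RNA, fewer cells of a type and less RNA per cell cannot be told apart. From S0 to S3, 154 rose (all peaks 14.6%) and 170 fell (all peaks 13%), and from S0 to S6, 193 rose (all peaks 16.9%) and 213 fell (all peaks 13.8%). The steps from S3 to S4 (9 called, all peaks 1.08% in either direction) and from S4 to S6 (57 called, all peaks 3.74% in either direction) moved few. At plus-strand 5′ ends 91 rose (16.8%) and 62 fell (11.4%) from S0 to S6. At minus-strand low-start peaks 67 rose (12.7%) and 115 fell (21.9%), away from the shares of all peaks. The later peaks of the same genes went the other way. In plus-strand genes 217 of them rose (12.3%) and 317 fell (18%), and in minus-strand genes 284 rose (19%) and 186 fell (12.4%).

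SOX2, a core factor of pluripotency, held 205 to 271 CPM of input in its peak at position 1 at S0. At S3 it held 124 and 126 CPM in H1 and 1.40 and 3.27 in MEL1, and it fell from S0 by 3.18 ± 0.75 on the log2 scale (SE; adjusted p = 0.00387 in edgeR). H1 kept SOX2 at 186 and 214 CPM at S4, above every MEL1 preparation after S0, and the stem cell list as a whole, 14 detected genes, summed to 2080 and 2180 CPM in H1 S4 and 758 and 801 in MEL1 S4. The part of undifferentiated or neural cells in the SOX2 level was not tested.

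Pancreas and foregut factors rose. MEIS1, a homeobox cofactor of PDX1, held 0 to 1.26 CPM at S0 and 17.3 to 40.1 at S6, a change of 6.42 ± 0.53 (SE; adjusted p = 9.42e-08). SOX9, which maintains pancreatic progenitors, went from 1.60 to 4.55 CPM at S0 to 6.61 and 9.15 in H1 and 30.6 and 32.5 in MEL1 at S6, a rise of 2.70 ± 0.50 (adjusted p = 0.000549). HES1, a target of Notch signalling, rose by 1.12 ± 0.38 (adjusted p = 0.0304), with 9.04 to 21.8 CPM at S0 and 20.7 to 36.2 at S6, so that the ranges just overlap. ONECUT2, a homeobox factor of foregut and pancreas, held 2 input reads in all at S0 and 79 at S6, a ratio of 45.8 (exact 95% interval for counting error 12.3 to 385). MEIS1, SOX9 and HES1 are the 3 low-start members of the pancreas list, and ONECUT2 the 1 of the foregut list. FOXQ1 had 0 reads at S0 in all 4 libraries and a mean of 22.1 CPM at S6, at least 29.7-fold higher against a floor of 3 reads per library.

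The input of the hepatic genes FGB and VTN and of the ductal gene KRT19 also stood apart by line, which was not tested. FGB, the β chain of fibrinogen made by hepatocytes, held 495 and 696 CPM in MEL1 S3 and 2.50 and 4.08 in H1 S3 at step 4, with 1 read in all S0 libraries together. VTN, vitronectin of hepatic origin, held 4560 and 5060 CPM in MEL1 S4 and 13.3 and 13.8 in H1 S4 at listed position 78. KRT19, a keratin of duct and progenitor epithelium, rose from 134 CPM or less at S0 to 509 and 532 in H1 and 2880 and 2990 in MEL1 at S6, by 3.09 ± 0.45 (adjusted p = 4.87e-05). It was the 1 of 3 low-start peaks of the duct list called from S0 to S6. SPP1, of the same list, changed by -4.25 ± 0.88 (SE; adjusted p = 0.00154 in edgeR) from S0 to S3. From S0 to S6 its change of 0.47 ± 0.65 was not called. PTPRZ1 fell from 25 to 47.3 CPM at S0 to 4.05 to 11.3 at S6, by 2.55 ± 0.44 (adjusted p = 0.000279).

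**Figure D5:**
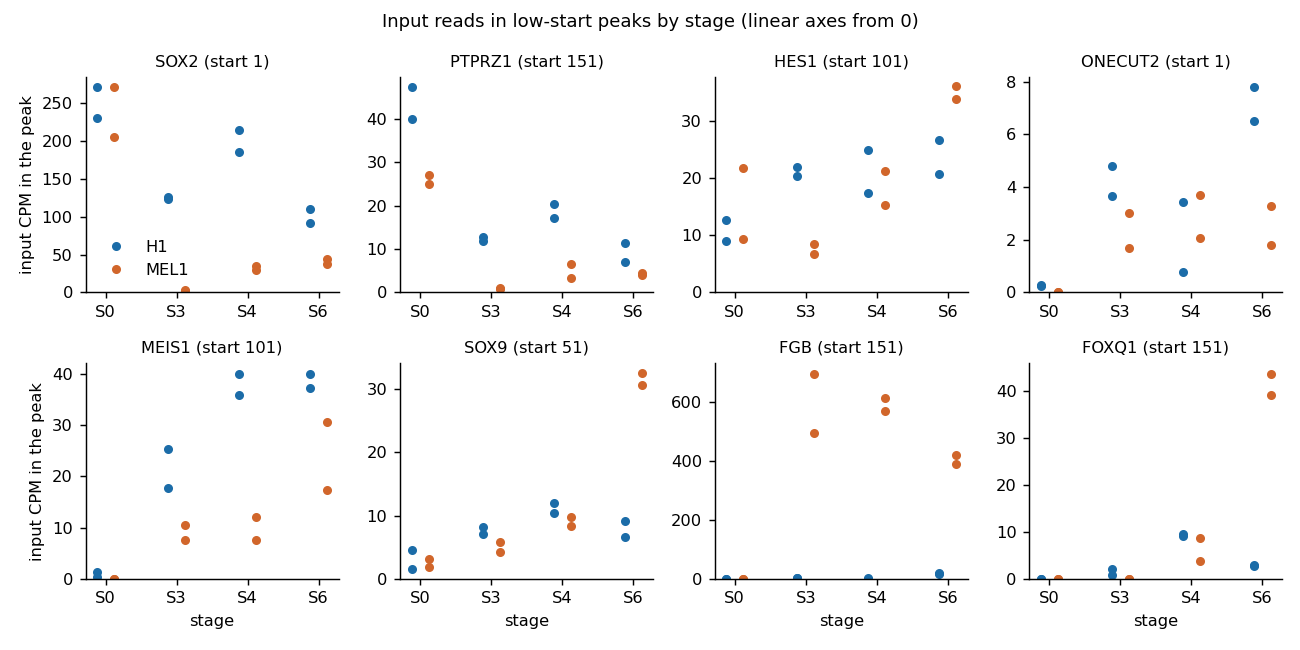
Input CPM (y axis, linear from 0, a different scale per panel) in 8 low-start peaks of named genes by stage and line, with each preparation as a point. SOX2 and PTPRZ1 are highest at S0, MEIS1 and ONECUT2 are near 0 there, and FGB reaches 495 to 696 CPM in MEL1 S3 against 2.50 and 4.08 in H1 S3.

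The first transcribed base was read from RefSeq for 518 plus-strand genes with a low-start peak. It was A in 49.0% and G in 37.3% of them, while the 2601 plus-strand genes with peaks but no low-start peak had A in 42.1% and G in 45.3%. Low-start peaks of genes starting with A had a median log2 IP over input of -1.29 (265 peaks), those starting with G -1.73 (203) and those starting with C -2.58 (73). A pyrimidine tract, here C followed by 4 bases that are C or T on the transcribed strand, opened the genes of 32 low-start peaks. Their median was -2.73, against -1.56 for the 511 without it. GGAC on the transcribed strand within the first 50 transcribed bases was found for 108 low-start peaks with a median of -1.01, against -1.78 for the 435 without it. By gene, 20.1% of the 518 with a low-start peak held GGAC in that window and 5.6% the tract. The 2601 plus-strand genes without a low-start peak had 19.4% and 5.81%, so the shares lay near each other. Of all 27305 promoters in the table, 18.8% hold GGAC in that window and 4.04% the tract. Of the 7 sequences printed above, RPL13A, EIF4H and RPL7A have C as the first transcribed base, and FAM72D holds GGAC in its transcribed bases, while that of SAC3D1 lies before the start. These values describe annotated starts, since the start used in these cells was not measured, and they are given without a test. Only 111 of the 543 plus-strand low-start peaks start at position 1, so the base, tract or motif can lie before the listed start of a peak.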

How the data were processed

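Raw read counts for 26104 merged peaks in 32 libraries were used as the authors deposited them. Per the study's methods, the authors counted reads in 50-bp bins per gene (Ensembl version 94) and called, merged and counted peaks with MeRIPtools. The aligner and genome build are not given in the sources used here, and peak ends were not used. Low-start peaks had a listed start of 151 or less. These peaks, gene lists and named genes were chosen with earlier results of these data known. Named genes had at least 10 reads on average in input and in IP. They were the members of the m6A machinery, stem cell, foregut and pancreas lists, the 2 members of each other list with the most input reads, the 4 highest and 4 lowest in enrichment per strand, the 2 highest and 2 lowest within their gene per strand, and the 2 largest called gains and losses of each stage change (input: S0 to S6) that moved the same way in 4 of 4 same-numbered pairs.

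Gene strand came from the RefSeq promoter table (GRCh38.p14), and for genes without an entry from the 50-bp grid, a choice made after seeing the data. With edgeR 4.0.16 (R 4.3.3), counts were TMM-scaled over all libraries and fitted with line, stage and type. IP over input, its changes, the line difference and the within-gene difference (diffSpliceDGE) were tested over all peaks. Levels are log2 CPM with a prior count of 1. The fits were also run on simulated counts with planted changes. Apart from these, the simulated peaks did not differ by line, stage or library type. The broad shifts between lines and stages seen here were not simulated. Alternatives used DESeq2 1.42.0, limma 3.58.1, other scalings and left-out libraries. Intervals and floors cover counting error only, since reads carry no molecular identifiers.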

Additional observations from a re-analysis of the deposited data

Results flagged for a closer look

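Of 260 groups of 4 preparations examined, 17 held a preparation far from the other 3 of its stage, and chance gives about 1 in 20. At S0, 5 of these came from MEL1 replicate 2. Its median log2 IP over input at plus-strand low-start peaks was -2.41, and it was also the low preparation for EIF4H (-9.70), FGFR4 (-5.58), IGF2BP1 (-5.45) and PRRC2A (-6.34). MEL1 S0 replicate 1 was the low one for IGF2BP2 (-0.58) and PRPF4B (-0.47). At S3, MEL1 replicate 1 was low for ACTG1 (-9.14) and high for FZD7 (1.44) and SAC3D1 (4.99). At S4, MEL1 replicate 1 was low for PSAP (-5.01), MEL1 replicate 2 for SOX2 (-2.63) and H1 replicate 1 for YTHDF1 (-1.58). At S6, MEL1 replicate 1 was low for CUL7 (-6.91) and INS-IGF2 (-4.85), and MEL1 replicate 2 for HES1 (-5.18) and PRPF4B (-1.25).

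Between the lines, 360 low-start peaks (28.5%, all peaks 18.7%) differed in IP over input in edgeR's test. Among the named ones, the log2 difference of MEL1 minus H1 was positive for B4GAT1 (1.14), HDAC1 (1.71) and SPP1 (2.66). For B4GAT1 it was 2.67 at S0 and 4.79 at S4 but -2.87 at S3, -0.04 at S6 and -0.08 with S4 not used. It was negative for the others, namely CCND1 (-1.15), CHD3 (-1.97), EEF1G (-1.19), EEF2 (-1.12), EIF4H (-2.74), FGFR4 (-1.64), IGF2BP1 (-2.12), PHC1P1 (-1.32), PRDX1 (-1.20), PRRC2A (-4.53), PSAP (-1.47), PTPRZ1 (-2.34) and RPL13A (-2.24). With S4 not used, CCND1 (-0.62), CHD3 (-0.54), EEF2 (-1), EIF4H (-0.50), FGFR4 (-0.57), PHC1P1 (-0.63) and PRRC2A (-3.19) were no longer called, while EEF1G, HDAC1, IGF2BP1, PRDX1, PSAP, PTPRZ1, RPL13A and SPP1 still were, in the same direction.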

How the results depend on the processing

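Shares of low-start peaks called are given as percentages. Enrichment was called in 59.4, 65.8, 61.2 and 67.4% at S0, S3, S4 and S6, and leaving out 1 preparation gave 54.3 to 60.5, 58.5 to 67.0, 54.3 to 61.9 and 61.8 to 68.4. The m6A change from S3 to S4 (6.26) was 2.77 with RLE, 3.17 with upper-quartile factors, 3.25 with TMM within IP and within input, 2.54 without cell line in the model, 50.2 in H1 alone, 17.1 in MEL1 alone, 21.8 without MEL1 S4, 1.84 at plus-strand peaks and 1.19 to 9.27 with 1 preparation left out. From S4 to S6 (7.53) it was 12.8 with DESeq2, 4.36 without cell line, 47.5 in H1, 15.8 in MEL1, 20.8 without MEL1 S4, 3.87 at plus-strand peaks and 3.57 to 10.1 with 1 left out. From S0 to S6 (0.951) it was 5.07 with DESeq2, 0.238 with RLE, 0.396 with upper-quartile factors, 0.0792 with TMM within type, 0.158 with the replicate block of either kind, 0 without cell line, 15.1 in H1, 10.9 in MEL1, 4.83 without MEL1 S4 and 0 to 2.06 with 1 left out. From S0 to S3 (0) it was 0.0792 with DESeq2, 13.7 in H1, 9.35 in MEL1, 0.158 without MEL1 S4, 0.0647 with 1 more step of starts and 0 to 0 with 1 left out. The line difference (28.5) was 14.8 without S4, 4.91 at S3, 49.8 at S4, 4.36 at S6, 18.4 at minus-strand peaks and 19.9 to 35.7 with 1 left out. Input change was 40.9 in MEL1 alone from S0 to S3 (25.7, with 20.7 to 28.7 with 1 left out). From S3 to S4 (0.713) it was 1.43 with DESeq2, 0.158 without cell line, 6.34 in H1, 5.76 in MEL1, 0.380 at minus-strand peaks and 0.475 to 1.11 with 1 left out. From S4 to S6 (4.52) it was 1.35 without cell line, 12 in H1, 12.7 in MEL1, 2.61 without MEL1 S4 and 2.46 to 5.78 with 1 left out, and from S0 to S6 (32.2) 28.0 to 34.4. The within-gene share (38.7) was 63.4 with limma on the ratio and 38.1 to 39.6 with 1 left out. The cause of these shifts was not tested. Single peaks that turned sign were B4GAT1 in the line difference (-0.08 without S4, -2.87 at S3, -0.04 at S6), CCND1 (0.63 at S3), CHD3 (1.31 at S3 and 0.55 at S6, and -2.50 for enrichment at S4 in MEL1), EIF4H (1.21 at S3), PTPRZ1 (1.61 at S4), HDAC7 from S4 to S6 (1.74 in H1, 1.02 without MEL1 S4) and MFSD6L input from S0 to S3 (-0.57 in H1). Same-numbered preparations were not treated as pairs, with deviations correlated at -0.07 to 0.48 and over 0.1 in 3 of 12 comparisons, those in MEL1 among S0, S3 and S6 (0.48, 0.25 and 0.36), and the replicate block moved no other share of calls by over 1.5 times. Fits without S4, by single stage and without MEL1 S4 were added after seeing the data. The alternative on peak width was not run, since peak ends were not used here. The MEL1 S4 IP libraries were the shallowest.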
